A study of Mus musculus with 18 samples.

Results

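The Zfp genes are the mouse genes named Zfp, for zinc finger protein, and a number. They were taken, from the authors' deposited table, as every gene whose name is a lone symbol of Zfp and a number, with an optional letter or l suffix, and that had a row between the 6 groups of samples used here. This rule found 107 Zfp genes among 5401 named genes with such a row, with 131 transcript entries and 493 rows. Of these genes 85 had 1 entry, 20 had 2 and 2 had 3. GENCODE M21, a mouse annotation, holds 394 protein-coding genes that fit the rule, so the other Zfp genes had no row. Having no row does not show that a gene was silent or unchanged, because the table lists differences of at least 2-fold with a q-value of at most 0.05.

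The study sequenced RNA of RAW264.7, a macrophage-like line from mouse, in 18 samples that form 6 groups of 3. Construct cells, labelled p2080, carry the lentivirus pINDUCER20-mCITED1, whose insert encodes mouse CITED1, a co-regulator of transcription, under the control of doxycycline. They were given doxycycline at 100 ng/mL and interferon-gamma at 200 U/mL together, interferon-gamma alone, doxycycline alone, or neither. Parental RAW cells without the construct were given doxycycline at 100 ng/mL or nothing. The labels do not say whether the construct cells are 1 clone or a pool, how long each treatment lasted, or whether replicate samples are separate cultures. None of these groups is parental cells with interferon-gamma, so an effect of doxycycline itself on stimulated cells cannot be told apart from that of CITED1. The table gives for each row a fold, a q-value and 1 summed level for a pair of groups, with no values per sample. The levels below are FPKM (fragments scaled by transcript length and library size) rebuilt for each group from that sum and the fold, and have no SD, no n and no known depth. Cited1 itself stood at 168 FPKM with doxycycline, against 0.703 FPKM in untreated construct cells, and at 86.7 FPKM with doxycycline and interferon-gamma, against 11.5 FPKM with interferon-gamma alone. Of 10 macrophage markers 5 were listed. Adgre1, which encodes the surface protein F4/80, was lower in untreated construct cells than in untreated parental cells, at 12.2 against 28.6 FPKM, and Fcgr1, Ptprc and Spi1 were higher and Adgre1 and Itgam lower with doxycycline and interferon-gamma than with doxycycline. None of 14 markers of fibroblasts, T cells, B cells or epithelium was listed.

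Most Zfp proteins carry C2H2 zinc fingers, small folds that each hold a zinc ion and together read a stretch of DNA. The largest class also carries a KRAB box, which recruits the co-repressor Trim28 (KAP1) and through it histone methylation and heterochromatin, and is known above all for silencing endogenous retroviruses. Zfp36, or tristetraprolin, stands apart: its CCCH fingers bind AU-rich elements in messenger RNAs such as that of Tnf and send them to decay, and in macrophages it limits inflammatory cytokines. Interferon-responsive promoters are known for a pair of short DNA elements, the palindromic GAS element of genes that answer interferon-gamma and the element ISRE of genes that answer type I interferon.

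The promoters of 4 Zfp genes are printed as hand-picked examples of both directions of the interferon-gamma response below. Zfp36 and Zfp429 were higher, and Zfp953 and Zfp658 lower, in both interferon-gamma comparisons. Each line gives 250 bases before the start of the gene from RefSeq, build GRCm38.p6, in the direction of transcription, with matches to the GAS letters TTCNNNGAA in capitals.
Zfp36, chr7:28379229-28379478, minus strand: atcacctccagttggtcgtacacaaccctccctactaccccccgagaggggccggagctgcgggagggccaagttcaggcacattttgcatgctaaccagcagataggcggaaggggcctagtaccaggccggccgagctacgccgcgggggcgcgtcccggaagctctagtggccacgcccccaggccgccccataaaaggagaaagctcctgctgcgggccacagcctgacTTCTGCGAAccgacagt
Zfp429, chr13:67399768-67400017, minus strand: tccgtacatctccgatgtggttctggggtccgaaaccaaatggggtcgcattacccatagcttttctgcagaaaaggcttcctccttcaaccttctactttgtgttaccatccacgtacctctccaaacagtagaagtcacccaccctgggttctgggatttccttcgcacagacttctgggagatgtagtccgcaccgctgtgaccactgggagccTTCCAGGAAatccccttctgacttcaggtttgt
Zfp953, chr13:67360573-67360822, minus strand: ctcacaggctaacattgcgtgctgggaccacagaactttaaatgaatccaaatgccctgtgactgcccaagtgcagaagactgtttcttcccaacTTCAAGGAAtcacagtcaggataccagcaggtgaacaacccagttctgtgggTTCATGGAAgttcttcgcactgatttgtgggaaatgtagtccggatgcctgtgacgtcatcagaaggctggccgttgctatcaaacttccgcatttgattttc
Zfp658, chr7:43562120-43562369, plus strand: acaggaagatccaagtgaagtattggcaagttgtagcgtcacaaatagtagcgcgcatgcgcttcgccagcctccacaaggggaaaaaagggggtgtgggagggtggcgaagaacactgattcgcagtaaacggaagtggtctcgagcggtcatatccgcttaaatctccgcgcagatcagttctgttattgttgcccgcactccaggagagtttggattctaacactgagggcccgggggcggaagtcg
The Zfp36 match begins 17 bases before the start and that of Zfp429 33 bases before it. Zfp953 has 2 matches, 155 and 103 bases before the start, and Zfp658 has none. Matches are more frequent in these 4 examples than in the promoters of all Zfp genes, given next. By symbol, 92 of the 107 Zfp genes matched the RefSeq promoter table, with 115 promoters, each of 250 bases before and 50 after the start. GAS letters, which read the same on both strands, were in 18 of these 115, or 15.7%, and in 8.3% of all 32851 promoters of the table. ISRE letters, which are GAAA, any 2 bases and GAAA again on either strand, were in 0 of the 115 and in 3.44% of all, so no overlap of both motifs arose. Several Zfp genes with GAS letters share a chromosome, such as Zfp429, Zfp953, Zfp759, Zfp455 and Zfp595 on chromosome 13. Close copies share sequence, so the Zfp promoters cannot be taken as independent, and the difference in GAS share was not tested. GAS letters were in 4 of 16 promoters of Zfp genes higher with interferon-gamma alone and in 5 of 24 promoters of those lower. With CITED1 induced they were in 3 of 20 promoters of Zfp genes higher and in 6 of 53 promoters of those lower. The letters thus occurred before genes of both directions, and a match describes the letters of this window, not a bound site.

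Most Zfp genes were expressed at low levels. Where a Zfp gene's most abundant entry had a known level, the median was 1.20 FPKM with doxycycline and interferon-gamma, 1.60 with interferon-gamma, 2.22 with doxycycline and 1.99 in untreated construct cells. It was 2.18 FPKM in parental cells with doxycycline and 1.85 in untreated parental cells. The same medians over all listed genes lay between 6.38 and 7.56 FPKM. The highest level stayed below 10 FPKM in 98 of the 107 genes and below 1 FPKM in every known group in 14. Zfp36 reached 208 FPKM, Zfp710 61.1, Zfp706 35.7, Zfp146 17.4, Zfp513 12.4, Zfp260 11.7, Zfp217 11.7, Zfp384 10.3 and Zfp800 10.2 FPKM. The number of fragments behind a fold is unknown.

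**Figure D1:**
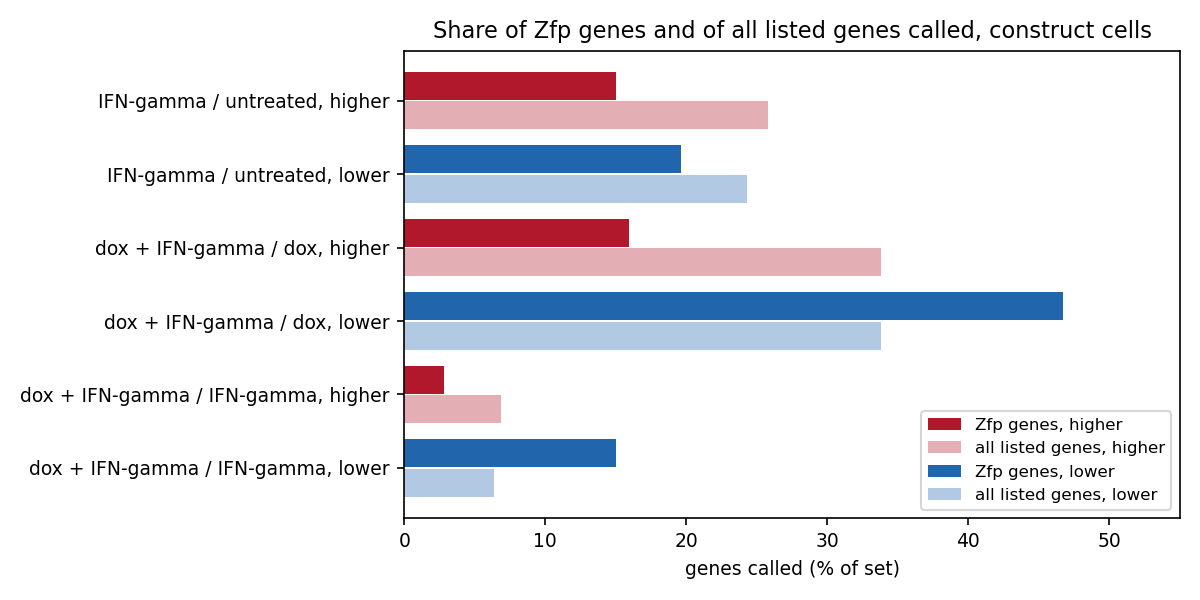
Percent of the 107 Zfp genes (dark bars) and of all 5401 listed genes (pale bars) that the authors called higher (red) or lower (blue) in 3 comparisons within construct cells; the slash reads as against. The dark blue bar is longer than the pale one in both comparisons that involve doxycycline with interferon-gamma (46.7% against 33.8%, and 15% against 6.37%), and shorter for interferon-gamma alone (19.6% against 24.3%).

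With interferon-gamma alone, Zfp genes were called in both directions. Cited1 itself was higher in this comparison, at 11.5 against 0.703 FPKM, so its level differed between these groups too, and its part in the result was not tested. Against untreated construct cells, 16 Zfp genes (15%) were higher and 21 (19.6%) lower with interferon-gamma, and Zfp777 had entries in both directions. Of all listed genes 25.8% were higher and 24.3% lower, both above the shares of the Zfp genes. Among listed genes whose highest level was below 10 FPKM 16.4% were higher and 24.3% lower. For the Zfp genes at that level these shares were nearer, at 13.3% and 20.4%, and no difference was tested. Rescaling by 0.65 on the log2 scale, which sets the median of listed entries to 0, gave 3 Zfp genes higher and 26 lower. These counts take every entry at 2-fold or more with both levels known, whether or not the authors called it. Listed entries were selected for 2-fold differences, so the shift itself removes rises and adds falls, and cannot decide the balance of directions. In the authors' deposited table the median of each gene's largest fold was 2.25 over genes with a higher entry. Over genes with a lower entry it was 2.54. In bulk RNA, fewer cells that express a gene and less RNA per cell cannot be told apart.

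Zfp36 was the most abundant Zfp gene and rose most. Its main entry, ENSMUST00000051241, stood at 208 FPKM with doxycycline and interferon-gamma, 140 with interferon-gamma, 12.3 with doxycycline and 11.2 in untreated construct cells, and at 11.7 FPKM in parental cells with doxycycline and 13.1 in untreated parental cells. The 4 groups without interferon-gamma thus lay close together, and both groups with it lay far above them. In the authors' deposited table the fold was 12.51 with interferon-gamma alone and 16.91 with CITED1 induced, each at the smallest q the table holds, 3.9e-04. A second entry, ENSMUST00000209061, had 22.3 FPKM with doxycycline and interferon-gamma and 13.0 with interferon-gamma, against 0.796 with doxycycline and 1.00 in untreated construct cells. Between doxycycline with interferon-gamma and interferon-gamma alone Zfp36 had no row, at a ratio of 1.48 for the main entry. Its relative Zfp36l2, listed under a joint name and so not counted here, moved the other way, at 41.8 FPKM with interferon-gamma against 86.5 FPKM in untreated construct cells.

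After Zfp36, the largest rises with interferon-gamma alone, among entries that reached 1 FPKM, were in Zfp777, Zfp688, Zfp945, Zfp51, Zfp821, Zfp800, Zfp260, Zfp318 and Zfp287. Zfp773 rose more than some of these but stayed below 1 FPKM in both groups. Zfp777, a KRAB gene, had 7.77 FPKM with interferon-gamma against 1.89 FPKM in untreated construct cells in its entry ENSMUST00000095944. Zfp945, also a KRAB gene, had 1.56 FPKM against 0.533 FPKM. Zfp688 had 2.69 against 0.855 FPKM, in an entry annotated as subject to nonsense-mediated decay, and the called Zfp287 entry (2.25 against 1.06 FPKM) carries the same annotation. The coding entry of Zfp287 stood at 1.38 against 0.673 FPKM without a row. Zfp318, which in B cells is needed for the expression of IgD, had 6.14 FPKM against 2.89 FPKM. Zfp260 had 11.7 FPKM against 5.19 FPKM, the second highest level among the Zfp genes called higher in this comparison. Zfp51 had 6.33 against 2.58 FPKM, Zfp800 7.24 against 3.00 FPKM and Zfp821 2.78 against 1.14 FPKM. Zfp341 had 2.19 FPKM with interferon-gamma against 1.07 FPKM in untreated construct cells.

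The largest falls with interferon-gamma alone, among entries that reached 1 FPKM, were in Zfp658, Zfp385a, Zfp41, Zfp111, Zfp428, Zfp932, Zfp953, Zfp503, Zfp629 and Zfp719. Zfp709 and Zfp94 fell more than some of these but stayed below 1 FPKM in both groups. Zfp658, a KRAB gene with 21 fingers, had 0.0398 FPKM with doxycycline and interferon-gamma and 0.0447 with interferon-gamma, against 1.41 with doxycycline, 1.36 in untreated construct cells, 0.89 in parental cells with doxycycline and 0.88 in untreated parental cells. Both stimulated groups were close to 0 and the 4 others were not, and the authors' deposited table gives a 30.55-fold fall with interferon-gamma alone. Zfp385a, which binds p53 and directs it to genes of cell cycle arrest, had 0.906 FPKM with interferon-gamma against 4.13 FPKM in untreated construct cells. Zfp503, a regulator of striatal and limb development, had 1.05 against 3.08 FPKM. Zfp706, a small protein described in mouse embryonic stem cells as promoting the exit from self-renewal, was the most abundant Zfp gene that fell. It had 15.0 FPKM with interferon-gamma against 35.1 FPKM in untreated construct cells. Zfp111 had 0.585 against 2.36 FPKM, Zfp932 0.932 against 3.03 FPKM and Zfp629 1.05 against 2.68 FPKM. Zfp428 had 0.407 against 1.55 FPKM, Zfp953 0.728 against 2.22 FPKM and Zfp719 1.04 against 2.62 FPKM.

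With CITED1 induced, the Zfp genes moved mostly down. Doxycycline with interferon-gamma against doxycycline alone gave 17 Zfp genes (15.9%) higher and 50 (46.7%) lower, while 33.8% of all listed genes were higher and 33.8% lower. Among the 2440 listed genes whose highest level was below 10 FPKM, 35.9% were lower, and so were 48 of the 98 Zfp genes at that level (49.0%). Of the listed genes that reached 10 FPKM 32.2% were lower, little less than below it. Rises differed more by level: 21.2% of listed genes below 10 FPKM were higher, and 44.1% of those that reached it. Of the 98 Zfp genes below it 12.2% were higher. Listed genes of low level thus also moved down more often than up, and the part of level in the result was not tested. Rescaled in the same way, by 1.02, 3 Zfp genes were higher and 52 lower. This shift again removes rises by itself, and these counts include entries that the authors did not call. With a pseudocount of 1 FPKM 9 were higher and 15 lower. The falls were modest: the median of each gene's largest fold was 2.65 in the authors' deposited table, and 32 of the 50 genes lay below 3-fold.

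The largest falls in this comparison were in Zfp658, Zfp41, Zfp763, Zfp951, Zfp101, Zfp362, Zfp652, Zfp629, Zfp398 and Zfp958, beside Zfp940 and Zfp775, which stayed below 1 FPKM in both groups. Zfp41 fell in both of its entries, to 0.352 FPKM with doxycycline and interferon-gamma, against 2.56 FPKM with doxycycline, and to 0.226 against 0.994 FPKM. Zfp763 had 0.336 against 1.72 FPKM and Zfp951 had 0.259 against 1.29 FPKM. These 3 genes ended at a small part of a level that was already low. Among genes of higher level, Zfp362 had 2.00 FPKM with both agents against 7.70 FPKM with doxycycline, and Zfp652, whose human counterpart works with the co-repressor CBFA2T3, had 2.03 against 7.31 FPKM. Zfp958 had 1.76 against 6.14 FPKM. Zfp146, made almost wholly of zinc fingers, had 8.02 against 17.4 FPKM, and Zfp706 16.0 against 35.7 FPKM. Zfp746 (PARIS), a KRAB protein that represses the gene for the co-activator PGC-1 alpha and is a target of parkin, had 1.11 against 2.73 FPKM. That is its called entry, and its more abundant entry stood at 1.89 against 3.30 FPKM without a row. Zfp148 (ZBP-89), which binds GC-rich promoters, had 1.68 against 3.60 FPKM.

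The largest rises in the same comparison, among entries that reached 1 FPKM, were in Zfp36, Zfp945, Zfp516, Zfp467, Zfp777, Zfp568, Zfp318, Zfp800, Zfp429 and Zfp513. Zfp773 rose more than some of these but stayed below 1 FPKM in both groups. Zfp945 rose in ENSMUST00000095615, annotated as a retained intron, to 2.35 FPKM with doxycycline and interferon-gamma, against 0.177 FPKM with doxycycline, and in ENSMUST00000088696, which is coding, to 1.90 against 0.433 FPKM. Zfp516, an activator of Ucp1 in brown fat, had 2.67 FPKM in the called entry against 0.253 FPKM, and its more abundant entry stood at 3.89 against 2.12 FPKM without a row. Zfp467, which in mice favours fat over bone differentiation of stromal cells, had 5.54 FPKM against 1.99 FPKM. Zfp568, which silences a placental transcript of Igf2, had 1.10 against 0.421 FPKM. Zfp513 had 12.4 against 5.38 FPKM, and Zfp217, whose human counterpart is amplified in breast cancer, 11.7 against 5.10 FPKM. Zfp800 had 10.2 against 4.04 FPKM, Zfp318 8.09 against 3.18 FPKM and Zfp429 5.18 against 2.17 FPKM.

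**Figure D2:**
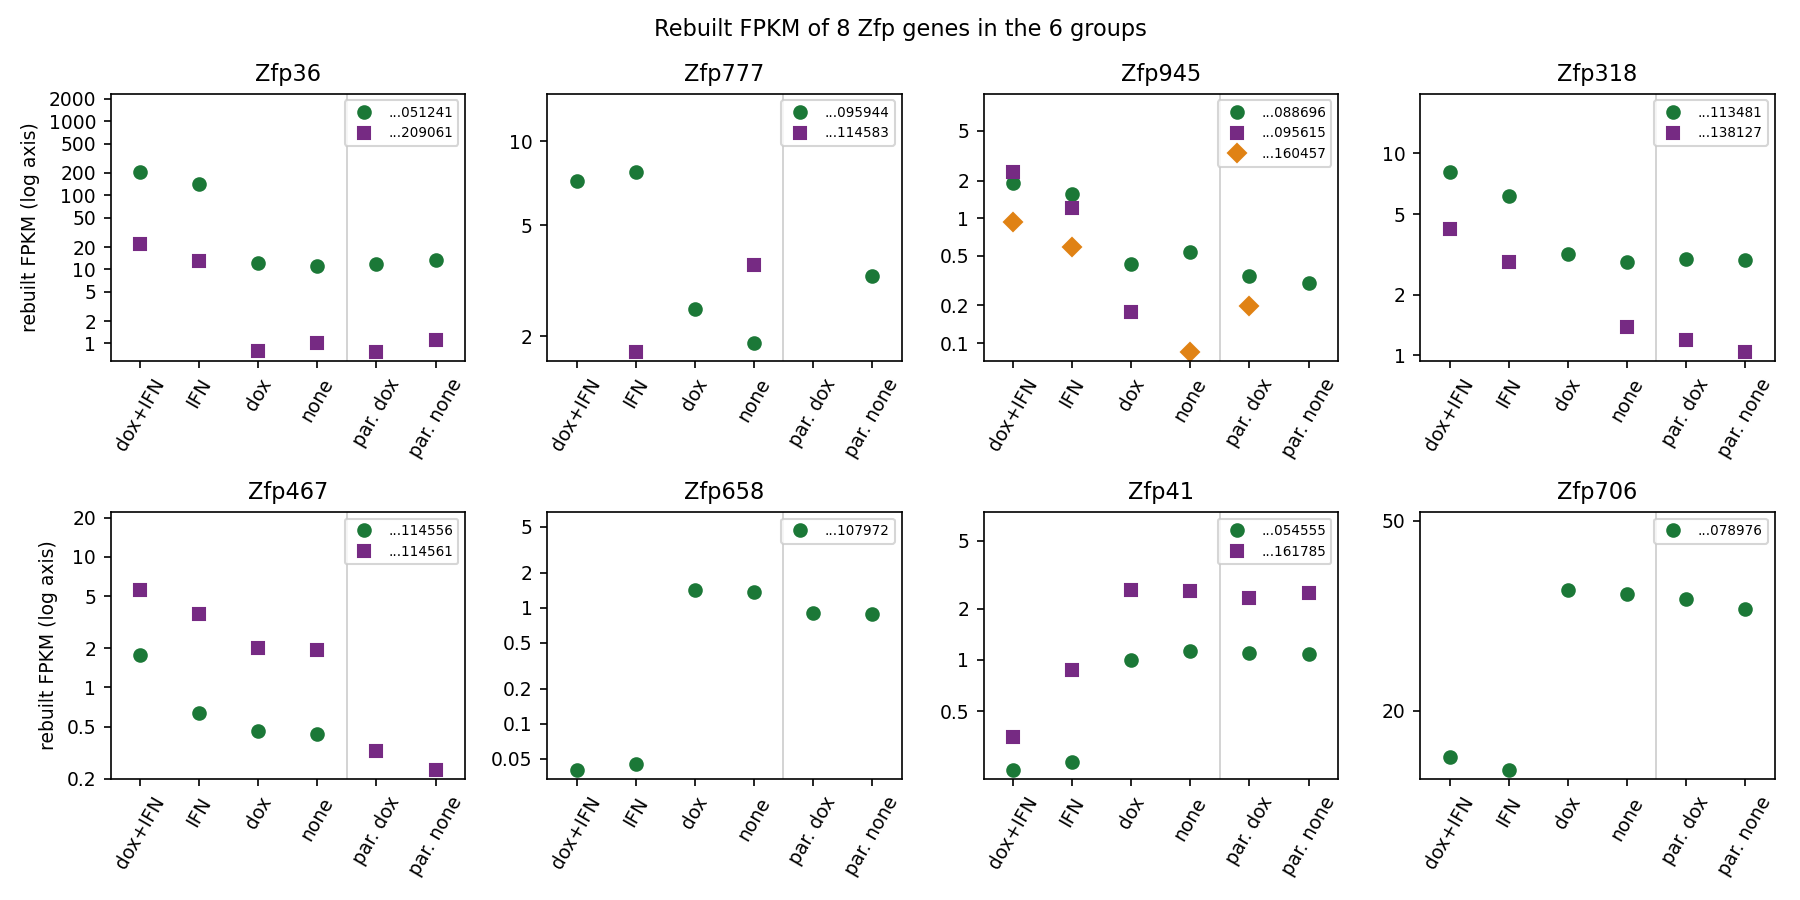
Rebuilt FPKM (log axis, a separate scale in each panel) of 8 Zfp genes in the 6 groups: doxycycline with interferon-gamma, interferon-gamma, doxycycline and no treatment in construct cells (left of the line), then doxycycline and no treatment in parental cells ("par."). Each point is the authors' value for a group, colours and shapes are the gene's transcript entries by the end of their identifiers, and a missing point means no row with that group; Zfp36 is at 208 and 140 FPKM with interferon-gamma and at 11.2 to 13.1 FPKM without it.

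The 2 interferon-gamma comparisons share no group, so their calls can be set side by side. Of the 16 Zfp genes higher without doxycycline 9 (56.2%) were also among the 17 higher with it (52.9% of these): Zfp36, Zfp800, Zfp318, Zfp51, Zfp429, Zfp516, Zfp945, Zfp341 and Zfp773. Of the 21 lower without doxycycline 15 (71.4%) were among the 50 lower with it (30.0% of these). In the order of their levels the first 10 of the 15 were Zfp706, Zfp422, Zfp362, Zfp652, Zfp770, Zfp746, Zfp932, Zfp629, Zfp41 and Zfp111. The overlap is by gene, and Zfp516 and Zfp746 were called in different entries in the 2 comparisons. No Zfp gene was called in opposite directions, and of all listed genes 3 were higher without and lower with induction and 3 the reverse. Over all listed genes 82.5% of those higher without doxycycline were higher with it, 62.9% of the genes higher with doxycycline. For those lower these shares were 81.5% and 58.4%, and no difference between Zfp genes and all listed genes was tested.

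In 46 entries of 41 Zfp genes all 4 construct levels were known. Of these entries 28 were lower with interferon-gamma in both comparisons and 14 higher in both, and of the 3296 entries of all listed genes with 4 levels 1549 were lower and 1686 higher in both. The log2 ratio with induction minus that without had a median of -0.26 over the 46 entries, and 0.05 over the 3296 entries. It was below 0 in 58.7% of the Zfp entries and in 47.2% of all. Zfp775 lay farthest below equality. It had 0.193 FPKM with doxycycline and interferon-gamma, 1.39 with interferon-gamma, 0.847 with doxycycline and 0.967 in untreated construct cells, so interferon-gamma alone stood above untreated cells and both agents together below all 3 others. An entry has all 4 levels only where called rows reach each group, and for many entries these are rows of the same comparisons. The values shown thus also chose the entries, and the difference between the 2 interferon-gamma responses was not tested.

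**Figure D3:**
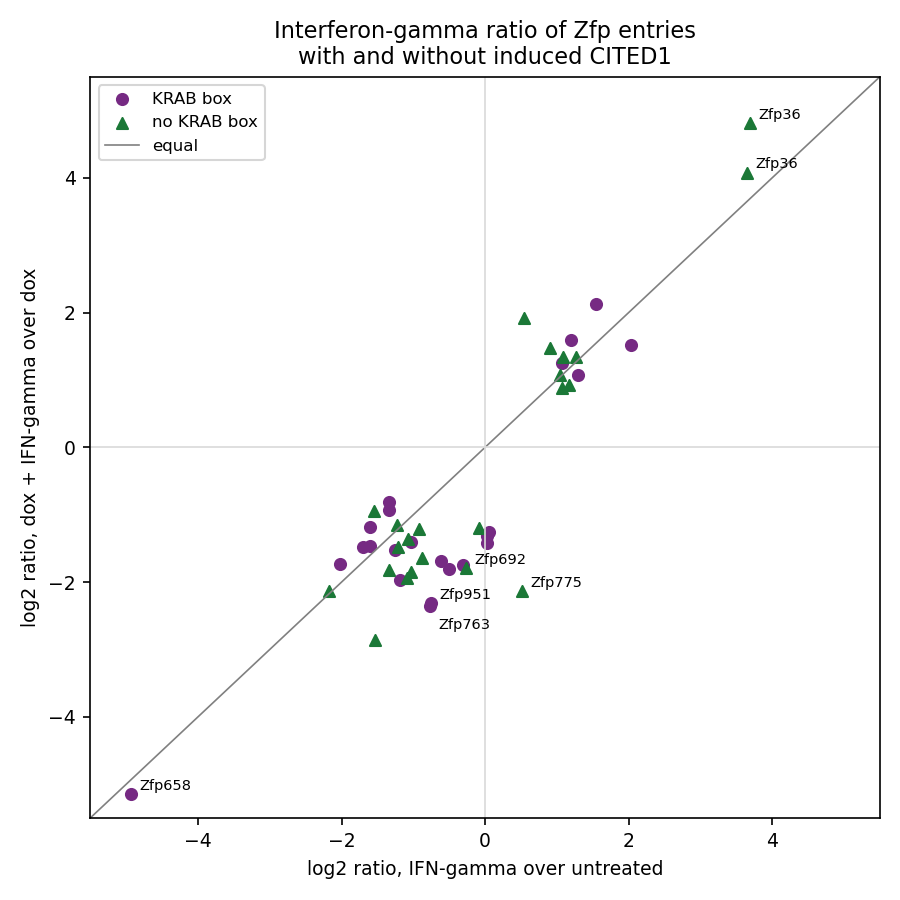
Log2 ratio of rebuilt FPKM for doxycycline with interferon-gamma over doxycycline (vertical) against interferon-gamma over untreated (horizontal) in construct cells, for the 46 entries of 41 Zfp genes with all 4 levels; circles have a KRAB box, triangles do not, and the diagonal marks equal ratios. Zfp36 lies at the upper right, on or above the diagonal, and Zfp658 near it at the lower left, while Zfp775, Zfp763, Zfp951 and Zfp692 lie below it.

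With CITED1 induced in interferon-gamma-stimulated cells, 16 Zfp genes (15%) were lower and 3 (2.8%) higher than with interferon-gamma alone. Of all listed genes 6.37% were lower and 6.87% higher. Among the called Zfp genes falls thus outnumbered rises, among all called genes they did not, and that difference was not tested. With a pseudocount of 1 FPKM on both levels 0 of the falls and 1 of the rises stayed at 2-fold. Most folds lay near 2, so a pseudocount also removes calls at higher levels, such as Zfp358 at 2.11 against 5.11 FPKM. Requiring 1 FPKM in 1 of both groups kept 11 falls and 3 rises, and a q of 0.01 kept 13 falls and 0 rises. Among listed genes below 10 FPKM 9.02% were lower and 6.27% higher, so falls outnumbered rises there too. Of the Zfp genes at that level 16.3% were lower, which were all 16, and 1.02% higher. The part of level in the result was not tested. The lower genes were Zfp775, Zfp692, Zfp763, Zfp41, Zfp369, Zfp157, Zfp358, Zfp449, Zfp958, Zfp9, Zfp68, Zfp266, Zfp712, Zfp39, Zfp810 and Zfp398. Their levels with doxycycline and interferon-gamma ranged between 0.194 and 2.30 FPKM, against 0.581 to 5.11 FPKM with interferon-gamma alone. With both agents 12 of the 16 were below 1 FPKM, and 5 were below 1 FPKM in both groups.

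Zfp775 fell most, to 0.194 FPKM against 1.39 FPKM with interferon-gamma alone, 7.15-fold in the authors' deposited table at a q of 0.0024. Zfp692 had 0.919 against 2.70 FPKM, 2.94-fold in the authors' deposited table. The other falls lay between 2.02-fold and 2.52-fold there. Genes of higher level were Zfp266, at 2.30 FPKM with both agents against 5.08 FPKM, Zfp358, at 2.11 against 5.11 FPKM, and Zfp958, at 1.76 against 4.14 FPKM. Zfp68 had 0.933 against 2.14 FPKM, Zfp810 1.10 against 2.26 FPKM and Zfp369 0.660 against 1.61 FPKM. The more abundant entry of Zfp68, at 3.79 FPKM with interferon-gamma alone, had no row here. Zfp41 was called in its more abundant entry, and its other entry stood at 0.227 against 0.251 FPKM without a row. Counting the most abundant entry of each gene kept 15 falls. Zfp157 had 0.501 against 1.22 FPKM and Zfp449 0.6 against 1.41 FPKM. For 11 of the 16 a level in untreated construct cells was known. The level with interferon-gamma alone was within 1.5-fold of it in 8 of them and lower by 1.5-fold or more in 3. These levels share the interferon-gamma group with the comparison that chose the genes.

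The 3 genes that rose with induction in stimulated cells were Zfp384, Zfp467 and Zfp800. Zfp384 (Nmp4), a regulator of bone formation in mice, had 6.05 FPKM in the called entry with doxycycline and interferon-gamma, against 2.16 FPKM with interferon-gamma. Zfp467 had 1.76 against 0.640 FPKM, in an entry that encodes 92 residues and no finger, while its entry of 594 residues with 12 fingers stood at 5.54 against 3.65 FPKM without a row. Zfp800 had 4.62 against 2.14 FPKM, and its more abundant entry stood at 10.2 against 7.24 FPKM without a row. The q-values of these 3 calls were between 0.0379 and 0.0460 in the authors' deposited table, and none of the 3 was called in the gene's most abundant entry.

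**Figure D4:**
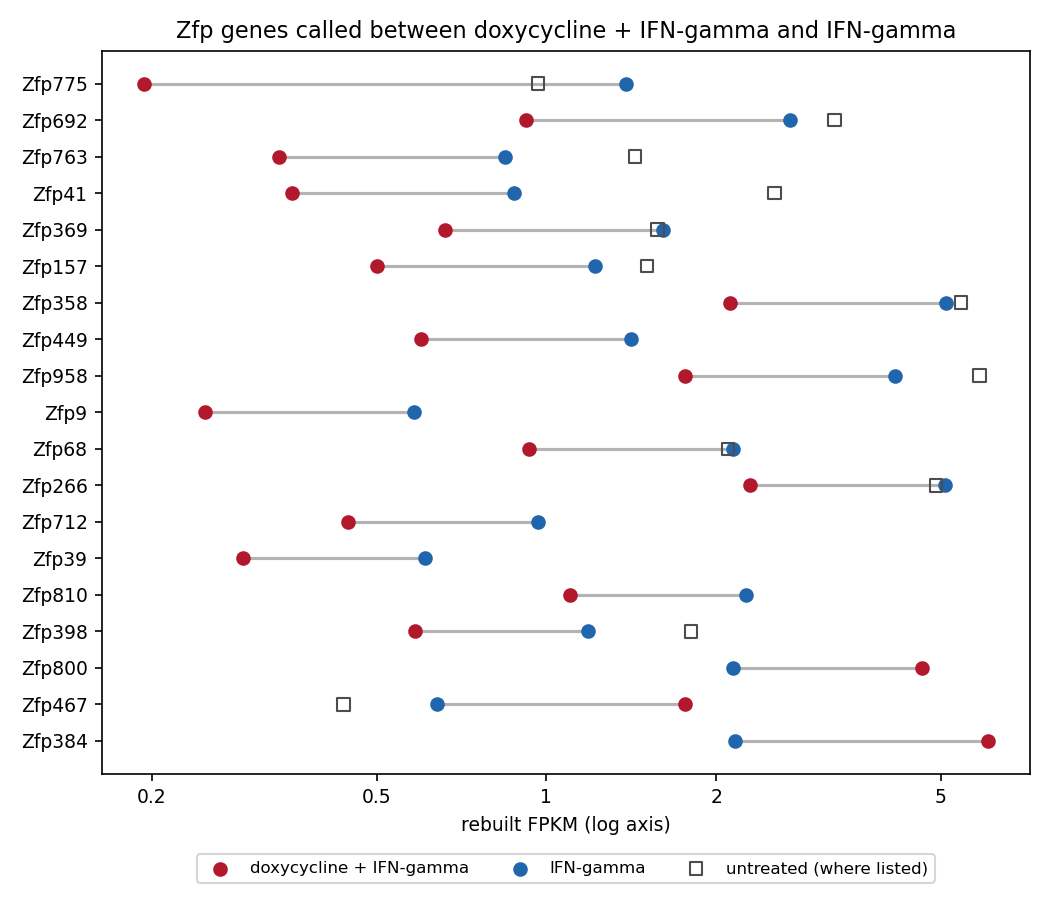
Rebuilt FPKM (log axis) of the 19 Zfp genes called between doxycycline with interferon-gamma (red) and interferon-gamma alone (blue) in construct cells, each in its called entry, joined by a line; open squares give untreated construct cells where a row exists. For the 16 lower genes the red point is left of the blue one, with the widest gap in Zfp775, and for Zfp800, Zfp467 and Zfp384 it is right of it.

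Without interferon-gamma, 0 Zfp genes were called in either direction with doxycycline in construct cells, and 0.204% of all listed genes were higher and 0.204% lower. In parental cells with doxycycline 0 Zfp genes were called, against 0.111% of all listed genes higher and 0.796% lower. The calls are those of Cuffdiff, and the table holds no unadjusted p by which to count weaker differences. Over the 70 Zfp entries with both levels known, the median log2 ratio of doxycycline over untreated construct cells was 0.01.

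Construct and parental cells differed in 2 Zfp genes. Without inducer 1 Zfp gene was higher and 0 were lower, against 1.74% of all listed genes higher and 2.8% lower. With doxycycline in both lines 1 was higher and 1 lower, against 2.41% and 3.18% of all. Zfp467 was the higher gene in both comparisons, at 1.95 FPKM in untreated construct cells against 0.232 FPKM in untreated parental cells, and at 1.99 FPKM in construct cells with doxycycline against 0.327 FPKM in parental cells with doxycycline. These are folds of 8.4 and 6.09 in the authors' deposited table. Zfp467 thus stood higher in the construct line before any treatment, and was the Zfp gene called in the most of the 7 comparisons, with 4. Zfp639 was the lower gene, at 0.541 FPKM in construct cells with doxycycline against 3.31 FPKM in parental cells with doxycycline. Zfp639 stood at 4.13 FPKM in construct cells with interferon-gamma, well above its level with doxycycline alone.

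The KRAB box was found in 66 of the 107 Zfp genes (61.7%), close to its share of all protein-coding genes of the rule (60.9%). Its presence and the number of fingers were read from the proteins that GENCODE M21 annotates. The Zfp genes had a median of 10 C2H2 fingers, with 11 in the KRAB class and 7 in the rest. The most, 33, were in Zfp462, and none were found in Zfp36 and Zfp503. KRAB genes were the less abundant class in all 6 groups. Their median level was 0.768 FPKM with doxycycline and interferon-gamma, 1.03 with interferon-gamma, 1.72 with doxycycline and 1.57 in untreated construct cells. The corresponding medians of the class without the box were 2.60, 2.69, 3.94 and 3.08 FPKM.

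Both classes fell and rose. With interferon-gamma alone 8 KRAB genes were higher and 10 lower, against 8 higher and 11 lower of the 41 genes without the box. With CITED1 induced 8 KRAB genes were higher and 34 (51.5%) lower, against 9 higher and 16 (39%) lower without the box. Induction in stimulated cells gave 0 KRAB genes higher and 11 lower, against 3 higher and 5 lower without the box. The shares of all listed genes were 25.8% higher and 24.3% lower, 33.8% and 33.8%, and 6.87% and 6.37% in these 3 comparisons. The classes differ in level as well as in the box, and no test between them was made.

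**Figure D5:**
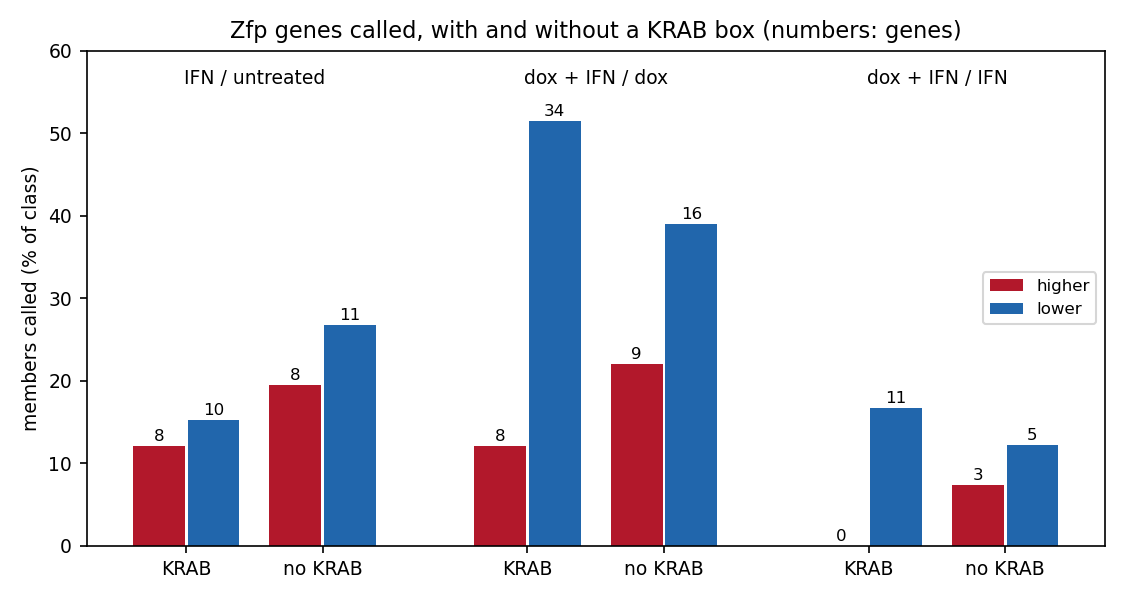
Percent of the 66 Zfp genes with a KRAB box and of the 41 without one that were called higher (red) or lower (blue) in 3 comparisons within construct cells; the numbers on the bars are genes. The blue bar is highest for KRAB genes with doxycycline and interferon-gamma against doxycycline (34 genes, 51.5%), and the 3 genes higher with both agents against interferon-gamma alone have no KRAB box.

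Entries of the same gene did not always move alike. Zfp777 is the Zfp gene with called entries in opposite directions: with interferon-gamma alone ENSMUST00000095944 had 7.77 against 1.89 FPKM in untreated construct cells, and ENSMUST00000114583 had 1.76 against 3.61 FPKM. Both encode a KRAB box and 9 fingers, in proteins of 841 and 885 residues. In Zfp945 all 3 called entries were higher in stimulated cells, and in Zfp41 both entries, which encode proteins of the same 198 residues in length, were lower. The entries of a gene share sequence, as do close copies such as Zfp874a and Zfp874b or Zfp109 and Zfp111. The sources used here do not give how shared reads were divided, and levels of such entries and genes are uncertain.

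Among 34 genes of the KRAB silencing machinery 18 were listed. With interferon-gamma alone 4 were higher, 7 lower and 1 in both directions, and with CITED1 induced 6 were higher and 8 lower. Among all listed genes 25.8% were higher and 24.3% lower in the first comparison and 33.8% each way in the second, near the share of this list that was higher. Trim28, the co-repressor that KRAB boxes bind, had 44.4 FPKM with doxycycline and interferon-gamma against 103 FPKM with doxycycline, and had no row for interferon-gamma alone. Cbx5 and Cbx3, heterochromatin proteins that Trim28 recruits, were at 7.12 against 26.6 FPKM and at 19.0 against 57.1 FPKM in the same comparison. Dnmt1, the maintenance DNA methyltransferase, had 13.6 against 36.3 FPKM, and its partner Uhrf1 12.8 against 36.7 FPKM. Several other members rose. Daxx, a chaperone of histone H3.3, had 116 FPKM with both agents against 13.0 FPKM with doxycycline, and Resf1, a silencing factor of retroviruses that works with Setdb1, had 26.2 against 6.01 FPKM. Daxx was the 1 member called with induction in stimulated cells, at 116 FPKM with doxycycline and interferon-gamma against 51.2 FPKM with interferon-gamma. Of all listed genes 6.87% were higher and 6.37% lower there.

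Of 21 genes of the Zfp36 family and its partners in messenger RNA decay 9 were listed. With interferon-gamma alone 2 were higher, Zfp36 itself and Zc3h12a, an RNase of inflammatory messenger RNAs that had 6.92 against 2.69 FPKM in untreated construct cells. Cnot6l, a deadenylase of the complex that Zfp36 recruits, was 1 of the 2 lower, at 6.15 against 14.3 FPKM. Of all listed genes 25.8% were higher and 24.3% lower in this comparison, near the shares of this list. With CITED1 induced 5 were higher and 1 lower, among them the RNA-binding ubiquitin ligase Rc3h2 (Roquin-2) at 2.84 against 0.945 FPKM and the exonuclease Xrn1 at 4.79 against 0.781 FPKM, while 33.8% of all listed genes were higher and 33.8% lower. Induction in stimulated cells gave no call in this list, while 6.87% of all listed genes were higher and 6.37% lower.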

How the data were processed

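Strand-specific, poly(A)-selected libraries were made from RAW264.7 cells in 18 samples of 6 groups, per the labels' protocols. The submitters' processing notes list Cuffdiff 2.2.1, STAR 2.5.3a, FastQC 0.11.5, edgeR and featureCounts, without their roles. The sources used here do not give the genome build, the annotation or how FPKM were scaled between libraries, and no coordinates of transcript entries are printed. The deposited file is the authors' Cuffdiff table of significant rows. Each row gives 2 groups, a fold as a linear ratio by the authors, a direction, the deposited summed FPKM of both groups and a deposited q-value. Of its 112230 rows, 77406 name a group outside the labels and were not used here, which left 34824 rows over 15 pairs of groups. Folds began at 2, q-values ended at 0.0499 and summed FPKM began at 0.550, and 58.4% of the rows of Zfp genes carry the smallest q.

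Levels were rebuilt by splitting the summed FPKM in the proportion of fold to 1. The median over comparisons was taken, and where a level of 1 FPKM or more recurred its values lay a median of 0.0652% and at most 0.753% apart. Where both levels of a called pair are given, they are those of its own row. A gene counts as higher or lower where all its called entries go that way. Percentages of all listed genes are over the 5401 genes with any row between the 6 groups. Tests on values per sample had been planned, but the table holds none. Every call is therefore that of the authors, at their q limit of 0.05, and no test was added. The q-values weigh a difference between groups against the spread among the 3 samples of a group, and that spread may be technical.

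Names of more than 1 gene and the pseudogene Zfp862-ps were left out, 6 names in all, among them Zfp36l2 and the main entry of Zfp281. Transcript types and coding sequences came from GENCODE M21, where all 131 entries carry the same symbol. A finger is C, 2 to 4 residues, C, 12 residues, H, 3 to 5 residues, H. The KRAB box was called with a profile of 40 residues built with pyhmmer 0.12.3 from 171 stretches, at an E-value of 1e-05 or less. Tables were made with Python 3.11.15 and pandas 2.3.3. Promoters came from RefSeq, build GRCm38.p6. Scripts were tested on simulated data.

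The members and lists were chosen with earlier results of these data known. The text names every Zfp gene called in comparisons with 12 or fewer, else the 10 largest folds each way among entries that reach 1 FPKM in a group of the pair, the 10 highest each way in both interferon-gamma comparisons, the Zfp36 family and genes with opposite entries. Other genes, such as Zfp341, Zfp706, Zfp146 and Zfp148, were named after their values were seen. Alternatives were a q of 0.01, a minimum of 1 FPKM, a pseudocount of 1 FPKM, rescaling, counting entries, the leading entry and symbols without a suffix; protein-coding entries were added after seeing the data.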

Additional observations from a re-analysis of the deposited data

How the results depend on the processing

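The table holds no values per sample, so leaving out a replicate was not run. No paired analysis was possible because the deposited table carries no replicate values. For 5 counts of 0 the alternatives gave 0 again, and most of these could give nothing else because they only drop calls. Of 72 recomputed counts for the other results 59 stayed within 1.5 times the reported count and 13 moved. With a pseudocount of 1 FPKM on both levels and 2-fold still required, interferon-gamma alone gave 5 higher and 6 lower, interferon-gamma with CITED1 induced 9 higher and 15 lower, and induction in stimulated cells 1 higher and 0 lower. Many of the calls thus lie at low levels or near the 2-fold limit, which a pseudocount cannot tell apart. How many fragments stand behind them is unknown. Rescaling, so that listed entries had a median log2 ratio of 0, shifted these 3 comparisons by 0.65, 1.02 and 0.10. The rescaled counts take every entry at 2-fold or more with both levels known, whether or not the authors called it. Listed entries were selected for 2-fold differences, so an upward median removes rises and adds falls by itself. No conclusion on the scaling of the libraries can be drawn from it. Rescaling gave 3 higher and 26 lower with interferon-gamma alone, and 3 higher and 52 lower with CITED1 induced. For construct against parental cells with doxycycline it gave 2 higher and 2 lower. Among the Zfp genes counted after rescaling 10.3% were higher for interferon-gamma alone, against 43.2% of those the authors called. With CITED1 induced these shares were 5.45% and 25.4%. Over all listed genes they were 30.9% and 51.5%, and 26.8% and 49.9%. For induction in stimulated cells the shares after rescaling and among the authors' calls were 15% and 15.8% for Zfp genes. For all listed genes they were 40.5% and 51.9%. A q of 0.01 or less gave 0 higher for induction in stimulated cells and 0 lower for construct against parental cells with doxycycline. Counting the most abundant entry gave 0 higher for induction in stimulated cells.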

Other observations

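Zfp genes often lie side by side in clusters, and 15 pairs of Zfp genes with a row are direct neighbours among the protein-coding genes of the annotation. With doxycycline and interferon-gamma against doxycycline both genes of 7 pairs were called. In 3 of these pairs both were lower: Zfp874a with Zfp874b, Zfp81 with Zfp101, and Zfp111 with Zfp109. In the other 4 pairs the directions were opposite. Zfp382 had 6.80 FPKM with both agents against 3.34 FPKM with doxycycline, while its neighbour Zfp146 had 8.02 against 17.4 FPKM. Zfp952 had 2.59 against 1.21 FPKM beside Zfp763 at 0.336 against 1.72 FPKM. Chromosome 7 held 24 of the 107 Zfp genes, of 92 that the annotation holds there, and chromosome 17 held 13 of 46. With interferon-gamma alone Zfp658 and its neighbour Zfp719 were both lower, and Zfp746 was lower beside Zfp777, which had entries in both directions.

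Another 21 Zfp genes were called in none of the 7 comparisons and had rows in pairs that differ by more than 1 factor. Zfp710, the second most abundant Zfp gene, was among them, at 61.1 FPKM in construct cells with doxycycline and interferon-gamma against 30.4 FPKM in parental cells with doxycycline and 30.0 FPKM in untreated parental cells. Zfp326 was another, at 4.58 against 9.56 and 9.20 FPKM in the same 3 groups. Zfp281, a transcription factor of embryonic stem cells, had 14.0 FPKM with doxycycline and interferon-gamma against 4.20 FPKM with doxycycline in an entry listed under a joint name, which the rule leaves out. That entry was called, 3.34-fold higher in the authors' deposited table.

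Other zinc finger families gave these calls, while of all listed genes 25.8% were higher and 24.3% lower with interferon-gamma alone, 33.8% each way with CITED1 induced, and 6.87% higher and 6.37% lower with induction in stimulated cells. Of 40 Zbtb genes 13 were listed, with 6 higher and 0 lower for interferon-gamma alone and 5 higher and 3 lower with CITED1 induced. Zbtb7b, known for fixing the CD4 T cell lineage, had 30.9 FPKM with interferon-gamma against 7.51 FPKM in untreated construct cells. Of 4 Egr genes 3 were listed, all higher in both interferon-gamma comparisons, with Egr1, an immediate early factor, at 78.6 against 6.16 FPKM. Of 17 Klf genes 6 were listed, and 4 were lower with induction in stimulated cells: Klf7, Klf9, Klf10 and Klf11, the last at 0.573 FPKM with doxycycline and interferon-gamma against 1.62 FPKM with interferon-gamma. Of 27 Zscan and Zkscan genes 9 were listed, with 2 higher and 3 lower for interferon-gamma alone and 1 higher and 1 lower with CITED1 induced. In the Ikzf family 1 of 5 genes was listed, higher with CITED1 induced, and no Gli, Glis or Zfhx gene was listed.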
